A study of Homo sapiens with 12 samples.

Results

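The transcripts described here are those of the better-expressed ZNF genes, the numbered zinc finger genes of the human genome, in A673 Ewing sarcoma cells treated with actinomycin D. They were selected on 2 criteria, a gene symbol made of ZNF, a number and at most 1 further letter, and a mean of at least 100 raw counts over the 12 libraries. Of 529 ZNF symbols among the 26334 symbols of the count table, 180 met the count minimum, and all 180 were among the 12032 genes tested (mean of at least 10 counts). A further 207 ZNF genes had a mean of 10 to under 100 counts, 142 had a lower mean, and 43 of these 142 were at 0 in every library. Because the mean count chose the members, their level is given below as a description, and the tests concern the change in time, which the choice did not use directly.

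Most ZNF proteins carry tandem C2H2 zinc fingers, small loops in which a pair of cysteines and a pair of histidines hold a zinc ion, and each finger reads a few bases of DNA. A large subfamily, many of its genes in clusters on chromosome 19, joins the fingers to a KRAB domain. The KRAB domain recruits TRIM28, which assembles a silencing complex with SETDB1, HP1 proteins and the NuRD remodeller at transposable elements and other targets. Other ZNF proteins lack KRAB and act as promoter-binding factors, as subunits of corepressor complexes, or on RNA and ribosomes.

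All samples were of 1 line, labelled shA673-1c and derived from A673, an established Ewing sarcoma line, and were kept in medium containing blasticidin and zeocin. All time points after 0 h received the drug, so no untreated course runs beside it. Actinomycin D, which blocks transcription by intercalating into DNA, was given at 5 µM for 0, 1, 2 or 4 h to cultures in 6-well plates, with 3 biological replicates for each time, and polyadenylated RNA was sequenced from stranded libraries. The question of such a course is how long each transcript outlasts the stop of its synthesis. The labels name no spiked-in RNA, so each level is relative to the other transcripts of its library, and fewer cells cannot be told apart from less RNA per cell.

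Library totals ranged from 9147018 to 11194705 counts. Levels are given as CPM, counts scaled to library size with TMM factors and not to transcript length. As a check of the times, the short-lived MYC transcript fell from 134.5 ± 11.5 CPM at 0 h to 8.37 ± 2.76 CPM at 4 h (SD, n = 3), and JUN and IER2 fell as well. GAPDH and ACTB, often used as stable references, had slopes of 0.15 and 0.12 log2 per hour. Of 12 markers of Ewing sarcoma cells, 11 were above 0 in every library and CD99 was listed at 0 in all of them. None of 7 endothelial markers reached 1 CPM, and of 5 blood cell markers only HBB did. The fibroblast list had 3 of 4 genes at 1 CPM or more, led by COL1A1 and PDGFRB.

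After transcription was blocked, most of the ZNF transcripts fell. Each gene was given a slope, the change in log2 level per hour over 0 to 4 h, from edgeR's quasi-likelihood test with Benjamini-Hochberg adjustment over all 12032 genes. Of the 180 members, 132 fell (73.3%), 7 rose and 41 did not pass the test, where 32.1% of all genes tested fell and 30.7% rose. The median member had a slope of -0.22 log2 per hour and the median gene one of 0.0093, and the members ranged from -0.97 (ZNF703) to 0.20 (ZNF276). Of all 180 members, 148 had a slope below 0 within each of the 3 replicates and 20 had one above 0 within each. The 132 that fell were all among the 148, but their calls came from these same replicates. In 143 members every 4 h value lay below every 0 h value, in 12 every 4 h value lay above, and in 25 the groups overlapped, against 33% of all genes below and 30.4% above. TMM scaling assumes that most genes do not change, and when levels were scaled to GAPDH and ACTB instead, the median of all genes moved by -0.14 log2 per hour, to -0.13. On that scale 168 members fell and 0 rose, with a median of -0.35, beside 64.2% and 0.931% of all genes. DESeq2 size factors and the DESeq2 Wald test gave counts within 1.5 times of those above.

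**Figure D1:**
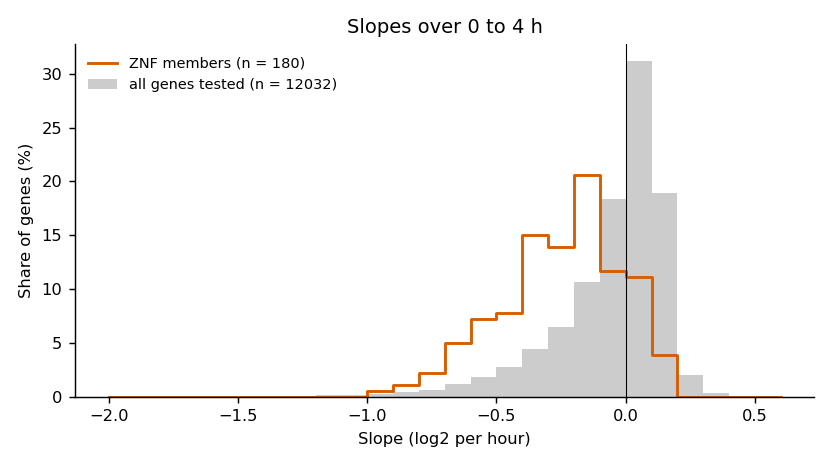
Share of genes (y axis, percent) in bins of 0.1 log2 per hour of the slope over 0 to 4 h (x axis), for all 12032 genes tested (grey bars) and the 180 ZNF members (orange outline). The members' outline lies to the left of the grey bars, with a median of -0.22 against 0.0093 log2 per hour.

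The fall was not even in time. The median member changed by -0.20 ± 0.011 log2 in the first hour (SD of the 3 replicate medians), by -0.39 ± 0.0032 in the second hour and by -0.19 ± 0.024 over the last 2 h, which is -0.095 per hour. The 3 replicates thus gave the second hour as the fastest. With GAPDH and ACTB scaling the steps were -0.315, -0.516 and -0.248 log2 per hour, with the second hour again the fastest and the last 2 h the slowest. Summed over all members, the level was 7027 to 7246 CPM at 0 h, 6144 to 6543 at 1 h, 5020 to 5217 at 2 h and 4346 to 4498 at 4 h, and no library of one time overlapped with those of the next.

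From 0 to 1 h, 74 members had all later values below all earlier ones and 6 had them above, against 12.7% and 6.78% of all genes. From 1 to 2 h the counts were 121 and 2, against 19.9% and 13.4%. The 2 members above were ZNF106 and ZNF664. From 2 to 4 h they were 75 and 17, against 22.7% and 19.6%. In all, 29 members were lower at each of the 3 steps, 16.1% of the members beside 5.55% of all genes. Among these 29 were ZNF703, ZNF184, ZNF766, ZNF408, ZNF436, ZNF148, ZNF24 and ZNF143, all named by the rules given with the processing.

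**Figure D2:**
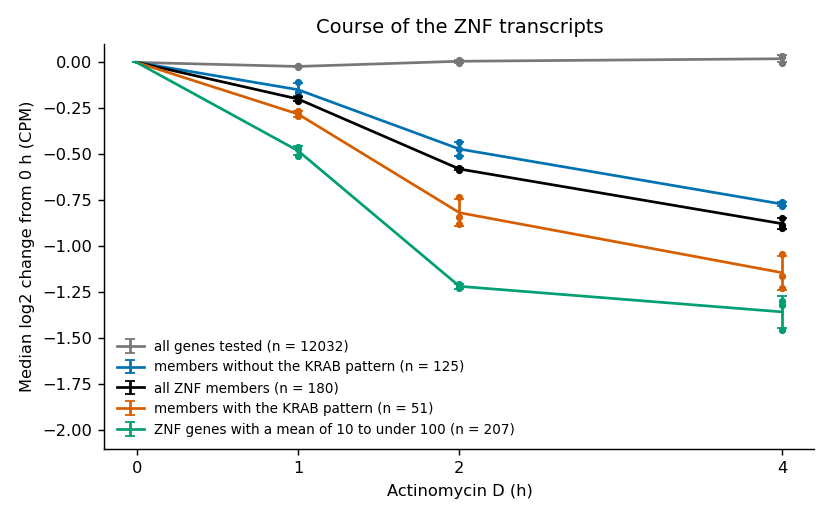
Median log2 change from 0 h in TMM-scaled CPM (y axis) against hours of actinomycin D (x axis) for all genes, all members, members with and without the KRAB pattern, and ZNF genes with a mean of 10 to under 100 counts. Dots are the 3 replicates, lines their means and bars the SD; at 4 h the members reach -0.88 and all genes 0.020.

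The steepest called falls were those of ZNF703, ZNF574, ZNF184, ZNF766, ZNF48, ZNF12, ZNF134, ZNF408, ZNF436 and ZNF217. ZNF703, a corepressor known as an amplified gene in luminal breast cancer, had the lowest slope. It stood at 108, 102 and 102 CPM at 0 h, 84.6, 82.2 and 66.3 at 1 h, 27.1, 21.6 and 15.2 at 2 h and 9.01, 8.71 and 8.29 at 4 h, in replicate order. The loss was thus modest at 1 h and steep between 1 and 2 h, and no value of one time overlapped with the next. Its slope was -0.97 log2 per hour (SE 0.075, adjusted p = 1.83e-08), the equivalent of a half-life of 1.03 h on the TMM scale if the decay were constant.

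ZNF574, a multi-finger protein encoded on chromosome 19, was read at 24.7, 27.4 and 23.8 CPM at 0 h, 15.5, 16.3 and 9.71 at 1 h, 2.88, 3.75 and 2.61 at 2 h and 3.32, 3.29 and 2.69 at 4 h. It had reached its lowest level by 2 h and the 2 h and 4 h values overlapped. Its slope was -0.87 log2 per hour (SE 0.11, adjusted p = 2.31e-06). ZNF184, encoded on chromosome 6, went on falling after 2 h, with 27.5, 28.6 and 28.6 CPM at 0 h, 20.7, 17.2 and 16.2 at 1 h, 5.37, 6.38 and 6.87 at 2 h and 2.61, 3.97 and 2.46 at 4 h. All 4 groups were apart, and the slope was -0.87 log2 per hour (SE 0.061, adjusted p = 8.19e-09). ZNF766, a KRAB zinc finger gene of chromosome 19, was at 27.1, 25.3 and 24.5 CPM at 0 h, 14.8, 17.8 and 15.2 at 1 h, 4.87, 5.17 and 5.23 at 2 h and 4.15, 2.71 and 4.03 at 4 h. Again the 4 groups did not overlap, with a slope of -0.79 log2 per hour (SE 0.072, adjusted p = 1.12e-07). The other 6 had slopes from -0.71 (ZNF48, ZNF12) to -0.65 (ZNF217), and at 4 h all 10 had their 3 values below their 3 values at 0 h.

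A slope converts to a half-life, -1 divided by the slope, only where the level fell at a constant rate, and the steps above show that the rate changed. With that limit, 29 members fell with an equivalent half-life of at most 2 h, 54 with one over 2 to 4 h and 49 with a longer one. The 29 were 16.1% of the members, while 4.70% of all genes tested fell this fast. The median over the fallen members was 3.20 h, and 4.35 h over all fallen genes. These half-lives and counts hold for the TMM scale only, as no spiked-in RNA fixes the scale. Scaled to GAPDH and ACTB, the median slope of all members was -0.355 log2 per hour in place of -0.218. Half-lives on that scale would be shorter.

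**Figure D3:**
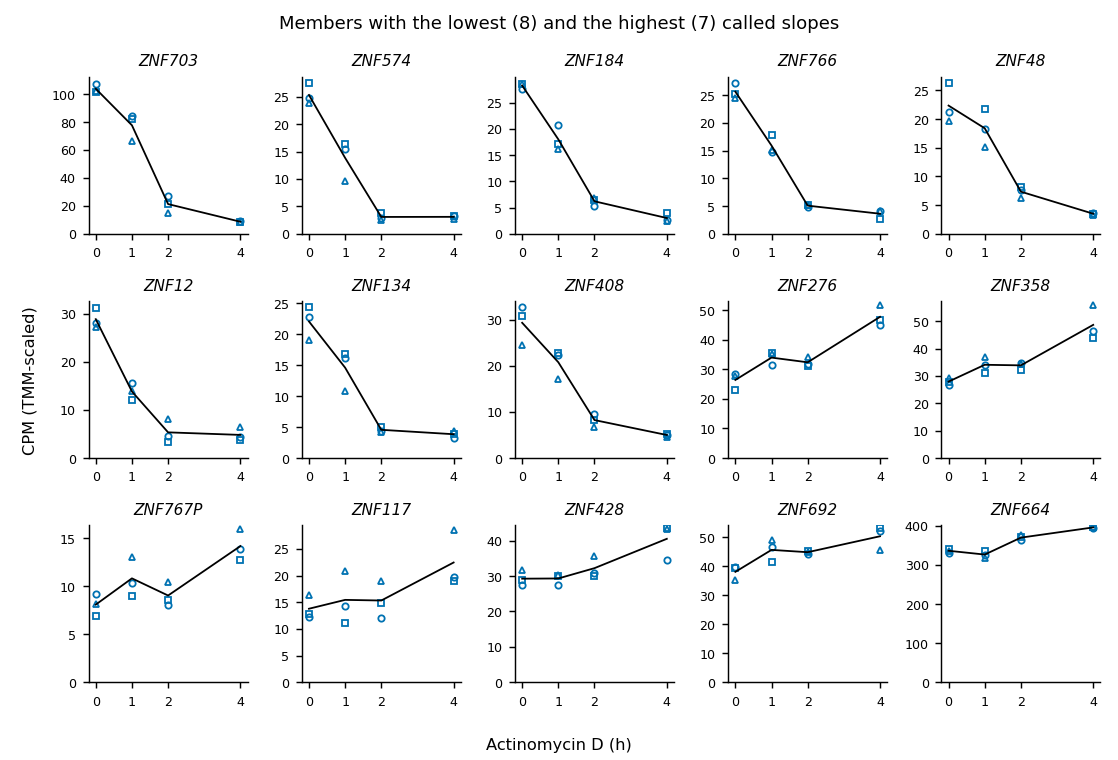
TMM-scaled CPM (y axis, from 0) against hours of actinomycin D (x axis) for the 8 members with the lowest called slopes, ZNF703 to ZNF408, and the 7 that rose, ZNF276 to ZNF664. Circles, squares and triangles are replicates 1, 2 and 3 and the line joins their means; in each of the first 8 most of the loss precedes 2 h.

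In the first hour of the drug, 26 members fell and 0 rose, against 2.24% and 0.349% of all genes (1 h against 0 h, edgeR's quasi-likelihood test with Benjamini-Hochberg adjustment). At an unadjusted p under 0.05 the same test had 69 members lower and 7 higher, beside 9.4% and 4.77% of all genes. The 5 lowest changes were those of ZNF92, ZNF267, ZNF12, ZNF217 and ZNF254. ZNF92 was read at 23.7, 29.9 and 26.8 CPM at 0 h and at 12.7, 10.7 and 11.98 CPM at 1 h, so the groups were apart by more than the spread of either. Its change was -1.18 log2 (SE 0.12, adjusted p = 0.00022). ZNF217, an amplified breast cancer gene whose protein works with CtBP and histone demethylase complexes, went from 54.5, 46.01 and 53.2 CPM to 26.1, 26.5 and 26.5 CPM, a change of -0.96 log2 (SE 0.095, adjusted p = 0.00022). ZNF281, a factor that binds GC-rich promoters, and ZNF644, a partner of the H3K9 methyltransferases EHMT1 and EHMT2, fell by 0.73 and 0.46 log2.

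The number of first-hour calls depended on the replicate block and on single libraries. With the replicate number as a block, 76 members were lower and 7 higher, against 10.5% and 6.18% of all genes, and all 26 of the unblocked calls were among the 76. The 7 were ZNF276, ZNF335, ZNF358, ZNF385A, ZNF692, ZNF76 and ZNF767P, and the DESeq2 Wald test called ZNF276 alone as higher. Without replicate 2 the unblocked count was 0, without replicate 1 it was 3 and without replicate 3 it was 15. Leaving out only the 0 h or the 1 h library gave 12 without 0 h replicate 2, 12 without 1 h replicate 3 and 17 without 1 h replicate 1.

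From 1 to 4 h, a comparison that shares its 1 h libraries with the one above, 123 members fell and 5 rose, against 28.5% and 25.4% of all genes, and the median change of the members was -0.65 log2. The 5 were ZNF276, ZNF337, ZNF358, ZNF428 and ZNF664, and with the replicate block there were 13. Of the 26 members lower after 1 h, 22 were called lower in these later hours too. The other 4 were ZNF107, ZNF280C, ZNF678 and ZNF721, named here after their values were seen.

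Members with and without a match to a KRAB pattern were compared next. A coding sequence was found for 176 members, and 51 of the translations held the residues typical of the KRAB A box, the part that contacts TRIM28. Of these 51, 44 fell (86.3%) and 0 rose, with a median slope of -0.32 log2 per hour. Of all members 73.3% fell, and of all genes tested 32.1% fell and 30.7% rose. Of the 125 without the pattern, 86 fell and 6 rose, with a median of -0.18. At 4 h the median change was -1.14 ± 0.093 log2 with the pattern and -0.77 ± 0.012 without it (SD of the 3 replicate medians), and the summed level of the 51 went from 1269 to 1400 CPM at 0 h to 638 to 641 CPM at 4 h. The 7 not called were ZNF25, ZNF331, ZNF343, ZNF431, ZNF587, ZNF621 and ZNF738. With the replicate block 46 fell, ZNF343 and ZNF587 being the 2 added (adjusted p = 0.0371 and 0.0328), beside 80% of all members and 34.8% of all genes. Scaled to GAPDH and ACTB 50 fell, beside 93.3% of all members and 64.2% of all genes. The pattern is strict and missed ZNF12 and ZNF184, so the 125 without it do not all lack a KRAB domain. With looser patterns, chosen after the values were seen, 66 members held one, 57 of them fell and 0 rose, and the medians were -0.27 with and -0.19 without. Lack of a looser pattern does not show lack of the domain either. No test of the difference between the classes was made.

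The coding bases of the A box were 62.5% to 83.3% identical between members at both ends of the slopes. The 48 coding bases below are shown for the 3 KRAB-pattern members with the lowest slopes (ZNF766, ZNF436 and ZNF92) and the 2 with the highest (ZNF331 and ZNF738). Capitals mark the codons of the matched residues, tryptophan, leucine, glutamine, leucine and tyrosine, and valine and methionine. All come from GENCODE version 44 on GRCh38, at ZNF766 chr19:52282159-52282206 (+ strand, exon 2 of 4), ZNF436 chr1:23367073-23367120 (- strand, exon 3 of 4), ZNF92 chr7:65387950-65387997 (+ strand, exon 2 of 4), ZNF331 chr19:53571652-53571699 (+ strand, exon 5 of 6), ZNF738 chr19:21375286-21375333 (+ strand, exon 3 of 5).
ZNF766: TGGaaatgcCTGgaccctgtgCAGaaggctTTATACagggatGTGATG
ZNF436: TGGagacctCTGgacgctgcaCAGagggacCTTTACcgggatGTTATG
ZNF92: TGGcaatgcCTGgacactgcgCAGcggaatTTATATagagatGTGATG
ZNF331: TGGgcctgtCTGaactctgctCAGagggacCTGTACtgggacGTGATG
ZNF738: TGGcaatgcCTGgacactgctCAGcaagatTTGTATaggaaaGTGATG

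ZNF92 and ZNF738 shared 40 of 48 bases (83.3%), and ZNF766 and ZNF92 shared 39 (81.2%). Their slopes were -0.64 for ZNF92, -0.79 for ZNF766 and 0.040 for ZNF738, whose own slope did not pass the test (adjusted p = 0.197). ZNF331, also not called (adjusted p = 0.268), was at 23.6, 27.4 and 26.2 CPM at 0 h and 27.2, 30.01 and 32.4 at 4 h, so that its groups overlapped. Scaled to GAPDH and ACTB, ZNF331 and ZNF738 had slopes of -0.098 and -0.097 and were called lower (adjusted p = 0.0236 and 0.0158). ZNF436 fell from 21.7, 24.02 and 20.2 CPM to 4.50, 4.36 and 3.47 CPM. ZNF738 shares 25.4% of its 75-base windows with another gene, and its value is uncertain to that extent.

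The number of fingers in the translated sequence ran from 0 to 36, with a median of 9. Of the 30 members with 15 or more fingers 28 fell and 0 rose, of the 53 with 10 to 14 fingers 41 fell, of the 59 with 5 to 9 fingers 40 fell, of the 21 with 2 to 4 fingers 13 fell, and of the 13 with 0 or 1 finger 8 fell. In the last 4 classes 1, 4, 0 and 1 rose. The shares that fell were, in this order, 93.3%, 77.4%, 67.8%, 61.9% and 61.5%, beside 73.3% of all members. Among all genes tested 32.1% fell and 30.7% rose. No test of the difference between these classes was made. The 2 not called among the 30 were ZNF337 and ZNF423. The medians did not follow the counts. They were -0.22 log2 per hour at 15 or more fingers, -0.29 at 10 to 14, -0.26 at 5 to 9, -0.16 at 2 to 4 and -0.11 at 0 or 1. Among members without the KRAB pattern, 66 of 92 with at least 5 fingers fell (median -0.21), and 20 of 33 with fewer (median -0.14). ZNF142, with 36 fingers the longest array, went from 56.3 CPM on average at 0 h to 33.6 at 4 h, a slope of -0.20.

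The finger itself is shown by its coding bases for the 3 members with the lowest called slopes that hold the standard form within 1 exon and for 2 that rose. Capitals mark the codons of both cysteines and both histidines and, at the end, the codons of the linker that joins neighbouring fingers. Each is the first such finger of its protein, at ZNF574 chr19:42080095-42080172 (+ strand, exon 2 of 2), ZNF184 chr6:27452812-27452889 (- strand, exon 6 of 6), ZNF766 chr19:52290776-52290853 (+ strand, exon 4 of 4), ZNF358 chr19:7520035-7520112 (+ strand, exon 2 of 2), ZNF117 chr7:64978575-64978652 (- strand, exon 4 of 4), GRCh38.
ZNF574: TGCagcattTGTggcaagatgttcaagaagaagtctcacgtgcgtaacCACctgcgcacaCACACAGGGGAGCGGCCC
ZNF184: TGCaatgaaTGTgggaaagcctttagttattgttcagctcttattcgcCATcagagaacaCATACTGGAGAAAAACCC
ZNF766: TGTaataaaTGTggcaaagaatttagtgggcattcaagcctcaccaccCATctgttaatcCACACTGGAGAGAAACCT
ZNF358: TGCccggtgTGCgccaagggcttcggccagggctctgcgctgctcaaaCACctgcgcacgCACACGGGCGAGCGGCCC
ZNF117: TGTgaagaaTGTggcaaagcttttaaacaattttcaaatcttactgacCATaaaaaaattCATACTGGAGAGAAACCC

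ZNF184, which fell, and ZNF117, which rose, had the highest identity of the 10 pairs, 57 of 78 bases (73.1%). ZNF117, on chromosome 7, was at 12.2, 12.8 and 16.3 CPM at 0 h and 19.8, 18.97 and 28.6 at 4 h. All 4 h values were above all 0 h values, with a slope of 0.17 log2 per hour (SE 0.052, adjusted p = 0.00939). Scaled to library totals and to GAPDH and ACTB, the slope of ZNF117 was 0.132 and 0.0335 and did not pass (adjusted p = 0.0524 and 0.651). Whether the finger sequence bears on the slope was not tested.

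Chromosome 19 held 44 of the 177 members matched to GENCODE, 24.4% of all members, beside 6.77% of all genes tested. There, 33 fell (75%) and 2 rose, ZNF358 and ZNF428, with a median slope of -0.31 log2 per hour. On the other chromosomes 97 of 133 fell (72.9%) and 4 rose, with a median of -0.21. Both shares of falls were near the 73.3% of all members. Among all genes tested 32.1% fell and 30.7% rose. The next largest groups were 16 members on chromosome 16 and 13 on chromosome 7.

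Rank correlations of transcript features with the slope were weak. Across members, Spearman's rho with the slope was 0.22 for the number of exons, -0.084 for ATTTA pentamers in the 3′ UTR and 0.032 for 3′ UTR length, over 176 or 177 members that share their libraries, and 0.23 for the mean count over 180. The 60 members with the lowest mean counts had a median slope of -0.35 and the 60 with the highest -0.20. The mean count includes the later times, so a fall lowers it. The median member had a 3′ UTR of 2001 bases with 4 ATTTA pentamers and 6 exons, where the median of all genes tested was 1406 bases, 2 pentamers and 9 exons.

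**Figure D4:**
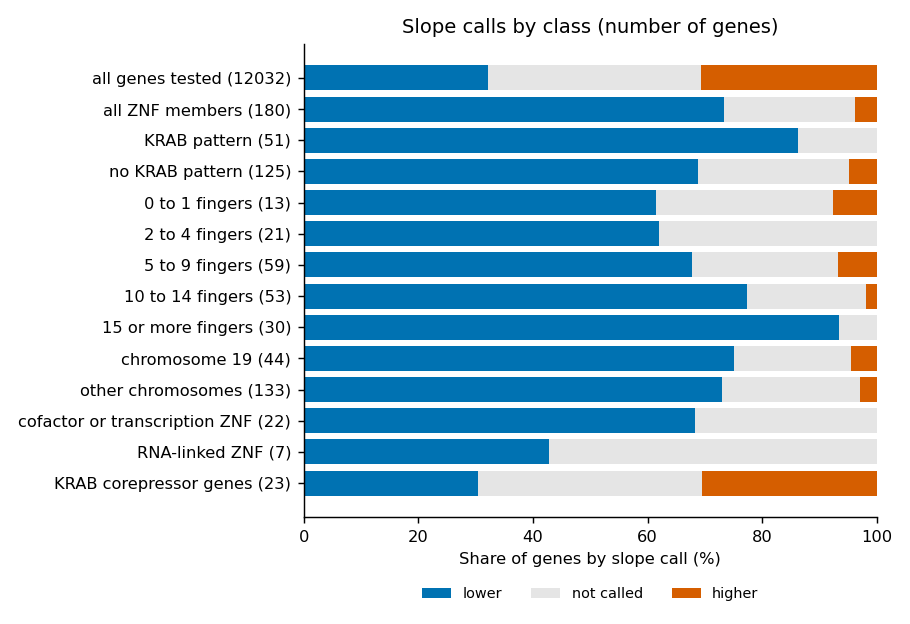
Share of genes (x axis, percent) called lower (blue), not called (grey) or higher (orange) by slope, for each class on the y axis with its number of genes. No member is called higher among those with the KRAB pattern, with 15 or more fingers or with 2 to 4 fingers. The same holds for the cofactor and RNA-linked lists. The corepressor genes have 7 of 23 on each side.

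Only 7 members rose, and each rise was small. ZNF276 was read at 28.3, 23.1 and 27.8 CPM at 0 h, 31.3, 35.5 and 35.04 at 1 h, 31.9, 31.1 and 34.1 at 2 h and 44.8, 46.7 and 51.7 at 4 h. Every 4 h value was above every 0 h value, and the slope was 0.20 log2 per hour (SE 0.027, adjusted p = 7.63e-06). ZNF358 was at 26.8, 27.8 and 29.2 CPM at 0 h and 46.2, 43.8 and 55.9 at 4 h, with a slope of 0.19 log2 per hour (SE 0.025, adjusted p = 6.45e-06). ZNF767P, ZNF117, ZNF428, ZNF692 and ZNF664 had slopes from 0.18 to 0.068. Scaled to GAPDH and ACTB none of the 7 was called higher, and ZNF428, ZNF692 and ZNF664 had slopes of -0.012, -0.051 and -0.070, of which that of ZNF664 was called lower. Scaled to library totals 5 members were called higher, beside 18.6% of all genes, and ZNF117 and ZNF692 no longer passed (adjusted p = 0.0524 and 0.0945). The calls of these rises thus rested on the scaling. Without spiked-in RNA each level is relative to the other transcripts of its library, and the cause of the rises was not tested. With the replicate block 11 members rose (6.11%), the 7 and ZNF185, ZNF385A, ZNF580 and ZNF83, beside 36.2% of all genes.

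ZNF664 had the highest raw count of the family, a mean of 3594 a library, a number that also grows with transcript length. It was at 331, 341 and 336 CPM at 0 h and 394, 397 and 396 at 4 h, and the groups did not overlap. ZNF106, an RNA-binding protein of muscle and neurons, followed with a mean of 2489 and a slope of 0.0012 (adjusted p = 0.966). ZNF146, made almost wholly of fingers, held its level for 1 h and then fell, with 274, 298 and 276 CPM at 0 h, 257, 295 and 271 at 1 h, 215, 221 and 215 at 2 h and 110.3, 117 and 105 at 4 h. The 0 h and 1 h values overlapped, while all 2 h and 4 h values were lower. Its slope was -0.35 log2 per hour (SE 0.03, adjusted p = 5.65e-08). Of the 5 members with the highest counts, ZNF146 and ZNF638 fell, ZNF664 rose, and ZNF106 and ZNF207 did not pass the test.

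A few members went down and then up. In 9 members (5.00%) all 2 h values lay below all 0 h values and all 4 h values above all 2 h values, a course found in 0.69% of all genes (83 of 12032). They were ZNF107, ZNF234, ZNF280C, ZNF331, ZNF343, ZNF397, ZNF431, ZNF587 and ZNF652, a form of course chosen after the values were seen and not tested. ZNF280C showed it most plainly, with 24.98, 21.99 and 29.04 CPM at 0 h, 15.8, 15.03 and 17.4 at 1 h, 10.9, 12.8 and 11.4 at 2 h and 18.4, 17.04 and 17.3 at 4 h. The 4 h values lay between those at 2 h and those at 0 h, and the straight-line slope did not pass the test (-0.12, adjusted p = 0.0979). ZNF107 was at 27.1, 25.9 and 30.4 CPM at 0 h, 20.9, 20.5 and 18.7 at 1 h, 15.4, 15.7 and 16.5 at 2 h and 17.5, 20.5 and 19.5 at 4 h. The 4 h values were above those at 2 h but below those at 0 h. Scaled to library totals 7 members had this course, among them ZNF337, beside 0.432% of all genes. Scaled to GAPDH and ACTB only ZNF280C had it, beside 0.133% of all genes.

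**Figure D5:**
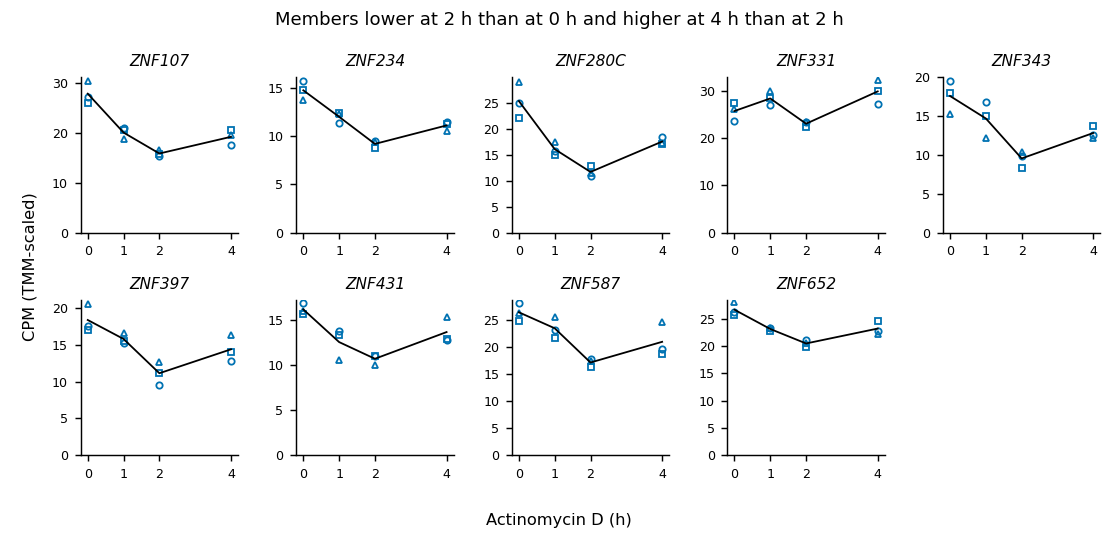
TMM-scaled CPM (y axis, from 0) against hours of actinomycin D (x axis) for the 9 members whose 2 h values were all below 0 h and whose 4 h values were all above 2 h. Circles, squares and triangles are replicates 1, 2 and 3 and the line joins their means; ZNF280C falls to 10.9 to 12.8 CPM at 2 h and stands at 17.0 to 18.4 CPM at 4 h.

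Among 22 members known as transcription factors or cofactors, 15 fell (68.2%) and 0 rose, with a median slope of -0.18 log2 per hour. Of all members 73.3% fell, and of all genes tested 32.1% fell and 30.7% rose. Scaled to GAPDH and ACTB 21 of the 22 fell, beside 93.3% of all members and 64.2% of all genes. ZNF703, ZNF217 and ZNF281 had the lowest slopes of the 22. They were followed by ZNF827, which recruits the NuRD complex to telomeres, and ZNF148, a binder of GC-rich promoters. ZNF148 was at 67.8, 76.4 and 70.3 CPM at 0 h, 56.1, 63.3 and 55.6 at 1 h, 31.8, 36.05 and 29.7 at 2 h and 17.6, 19.4 and 12.2 at 4 h. All 4 groups were apart, with a slope of -0.55 log2 per hour (SE 0.037, adjusted p = 5.46e-09). ZNF24, a SCAN-domain repressor, and ZNF143, an activator of small nuclear RNA and many protein-coding promoters, had first-hour changes of -0.19 and -0.088 log2 that did not pass the test (adjusted p = 0.151 and 0.781). With the replicate block the change of ZNF24 passed (adjusted p = 0.00317) and that of ZNF143 did not (0.531). ZNF143 was at 23.7, 23.9 and 23.98 CPM at 0 h, 22.2, 21.5 and 23.6 at 1 h, 18.4, 16.8 and 18.5 at 2 h and 10.7, 10.4 and 8.52 at 4 h. Each later group lay below the one before it, and the change from 1 to 4 h was -1.18 log2 (SE 0.10, adjusted p = 4.48e-07). ZNF410, which activates CHD4, had a slope of -0.31, but 82.7% of its windows are shared with another annotated gene. The 7 not called were ZNF76, ZNF219, ZNF335, ZNF423, ZNF512B, ZNF532 and ZNF592, with slopes from -0.12 to 0.043. ZNF335, a gene of inherited microcephaly, and ZNF423, a partner of EBF and SMAD factors, passed with the replicate block (adjusted p = 0.0492 and 0.00143).

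Of 7 members whose proteins act on RNA, ribosomes or the spindle, 3 fell (42.9%) and 0 rose, beside 32.1% and 30.7% of all genes, with a median slope of -0.063 log2 per hour. Scaled to GAPDH and ACTB all 7 fell, beside 64.2% of all genes. ZNF106 was not on this list. ZNF622, a factor of large ribosomal subunit maturation, was at 46.1, 46.01 and 40.5 CPM at 0 h, 41.9, 42.7 and 33.4 at 1 h, 34.6, 34.03 and 23.5 at 2 h and 16.6, 15.5 and 10.98 at 4 h. Its 0 h and 1 h values overlapped and the 4 h values were all lower, with a slope of -0.41 log2 per hour (SE 0.045, adjusted p = 8.76e-07). ZNF346, which binds double-stranded RNA, and ZNF638, a nuclear protein that silences unintegrated retroviral DNA, fell with slopes of -0.16 and -0.14. ZNF207, a spindle protein that binds BUB3, was at 194, 209.8 and 199 CPM at 0 h and 206, 204 and 176 at 4 h, and its groups overlapped (slope -0.0080, adjusted p = 0.706). ZNF598, the ubiquitin ligase that senses collided ribosomes, and ZNF326, a splicing and elongation factor, had slopes of 0.011 and 0.019 and did not pass the test. ZNF593, linked to ribosome export, had a slope of -0.063 (adjusted p = 0.0648), and passed with the replicate block (adjusted p = 0.0399).

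Zinc finger genes outside the selection also fell for the most part. Of the 207 ZNF genes with a mean of 10 to under 100 counts, 172 fell (83.1%) and 2 rose, with a median of -0.35 log2 per hour. Beside them, 73.3% of the members fell, and of all genes tested 32.1% fell and 30.7% rose. At the count minimum, ZNF649 (mean 98.9), ZNF124 (99.2) and ZNF587B (99.9) were just outside, and ZNF319 (100.8), ZNF584 (101.2) and ZNF423 (102.0) just inside. Their slopes were -0.62, -0.59 and -0.062, and -0.56, -0.56 and -0.12. Of 38 ZBTB genes, which join fingers to a BTB dimerisation domain, 30 fell and 0 rose. Of 16 ZSCAN genes 14 fell, and all 6 ZKSCAN genes fell. ZNF322 and ZNF564, both under the count minimum, had slopes of -0.80 and -0.97 (adjusted p = 1.04e-06 and 2.42e-05). Their lowest counts in a library were 2 and 3, so these slopes rest on few reads.

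The corepressors that KRAB proteins recruit had shares of calls near those of all genes, and their direction rested on the scaling. Of 23 genes of that machinery, 7 fell and 7 rose (30.4% each), beside 32.1% and 30.7% of all genes tested, with a median slope of 0.0037 log2 per hour. Scaled to GAPDH and ACTB, 21 fell and 0 rose, beside 64.2% and 0.931% of all genes. With the replicate block 9 fell and 8 rose, beside 34.8% and 36.2% of all genes. TRIM28, the scaffold itself, had a slope of 0.087 (SE 0.016, adjusted p = 0.000186), which was -0.052 when scaled to GAPDH and ACTB. SETDB1, the H3K9 methyltransferase of the complex, fell with a slope of -0.12, and ATF7IP, its stabilising partner, with -0.43. CHD3, a NuRD remodeller, had the highest of the slopes, 0.17, or 0.035 scaled to GAPDH and ACTB (adjusted p = 0.377). The median 4 h change was -0.0028 log2 for the 23 genes and -1.14 for the KRAB-pattern members, a difference that was not tested.

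Reads of near-identical genes could blur single values. In 14 members over 10% of the 75-base windows of the transcript also occur in another annotated gene, led by ZNF23 (97.1%), ZNF410 (82.7%) and ZNF286A (65.0%), and 4 members carry pseudogene names. Without these 18 members 123 of 162 fell and 5 rose, with a median slope of -0.25. How the authors assigned reads shared between genes was not given in the sources used here.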

How the data were processed

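The 12 libraries were 3 replicates at 0, 1, 2 and 4 h of actinomycin D. The values used are raw counts, deposited by the authors as whole numbers for each gene symbol in 1 table, and the submitters' processing notes name FastQC, STAR and hg19. How reads were counted was not given in the sources used here. All 12 columns were matched to samples by title, with 0 left over.

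Members and gene lists were chosen with earlier results of these data known. Counts were tested with edgeR 4.0.16 (R 4.3.3, TMM, glmQLFit and glmQLFTest, mean of at least 10 counts, Benjamini-Hochberg, threshold 0.05), with time as a number or as 4 groups, without a block. CPM are scaled by TMM. DESeq2 1.42.0, limma 3.58.1 on log2(CPM + 1), other scalings and filters, the replicate block and leaving out libraries were the alternatives, and the fits were tested on simulated data. Same-numbered samples of different times deviated from their group means alike (18 pairs, correlations of 0.458 to 0.776 over 8856 genes), so the numbers pair the samples.

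Named were the members with the 10 lowest and 10 highest called slopes (7 rose) and with 4 h on the same side of 0 h in all replicates, the 5 highest counts, the 5 lowest and highest first-hour changes, the list members and the genes beside the count minimum. Positions, coding sequences and UTRs came from GENCODE version 44 (GRCh38), by symbol, for 177 members. KRAB A box and finger patterns were sought in translations of these coding sequences in place of RefSeq proteins, which were not used here.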

Additional observations from a re-analysis of the deposited data

How the results depend on the processing

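The count of members lower by slope was within 1.5 times of 132 under every alternative run, and 127 to 136 when a replicate or a library was left out. Higher by slope were 0 with GAPDH and ACTB scaling, 11 with the replicate block, 1 over 0, 1 and 2 h only and 7 to 9 with a library or replicate left out. The median slope of the members was -0.257 with library totals, -0.355 with GAPDH and ACTB, -0.225 with a minimum mean of 100 counts, -0.214 for 4 h against 0 h per hour, -0.280 over 0 to 2 h, -0.214 over 1 to 4 h, -0.205 with limma and -0.232 to -0.207 with libraries left out. Less the median of all genes it was -0.221 for 4 h against 0 h, -0.233 with the minimum of 100, -0.231 with the block, -0.298 over 0 to 2 h, -0.223 over 1 to 4 h, -0.214 with limma and -0.239 to -0.217 with libraries left out. For 1 h against 0 h, 40 members were lower with GAPDH and ACTB, 76 with the block and 0 to 21 with libraries left out. Higher were 1 by the DESeq2 Wald test, 7 with the block and 0 with libraries left out. The median change was -0.305 with GAPDH and ACTB and -0.211 to -0.165 with libraries left out, and less that of all genes -0.187 with no count filter and -0.192 to -0.136 with libraries left out. For 4 h against 1 h, 110 to 125 were lower with libraries left out. Higher were 0 with GAPDH and ACTB, 13 with the block and 5 to 8 with libraries left out, the 8 without replicate 3 and without 1 h replicate 3. The median was -0.797 with library totals, -1.084 with GAPDH and ACTB and -0.685 to -0.615 with libraries left out, and less that of all genes -0.716 with the minimum of 100 and -0.732 to -0.649 with libraries left out. The replicate block changed the slope calls of 16 members, 12 newly lower (ZNF205, ZNF32, ZNF335, ZNF343, ZNF397, ZNF423, ZNF512, ZNF587, ZNF593, ZNF641, ZNF714 and ZNF768) and 4 newly higher (ZNF185, ZNF385A, ZNF580 and ZNF83), and of 3 of the 23 corepressor genes, CBX3, CBX5 and DNMT3B. It changed no other slope call of the members or these genes. Scaled to GAPDH and ACTB, the slopes of 22 of the 180 members and 11 of the 23 corepressor genes changed sign. Among them were -0.0954 for ZNF76, -0.137 for ZNF106, -0.12 for ZNF326, -0.012 for ZNF428, -0.127 for ZNF512B, -0.123 for ZNF532, -0.126 for ZNF598, -0.0696 for ZNF664, -0.0513 for ZNF692 and -0.0519 for TRIM28. ACTB, in neither group and itself part of that scale, had -0.0167. With library totals 12 members and 5 corepressor genes changed sign, among them -0.0381 for ZNF106, -0.0209 for ZNF326, -0.0286 for ZNF512B, -0.0243 for ZNF532 and -0.028 for ZNF598. Over 1 to 4 h the slope was -0.0243 for ZNF76, 0.0236 for ZNF219, -0.00603 for ZNF512B and -0.0096 for ZNF598, and over 0 to 2 h 0.0212 for ZNF207. ZNF106 had -0.0103 for 4 h against 0 h, -0.00108 with no count filter and -0.00537 with the minimum of 100. With libraries left out, slopes ran from -0.0143 to 0.0201 for ZNF106, -0.0207 to 0.00956 for ZNF207, -0.0206 to 0.0123 for ZNF219 and -0.0124 to 0.0355 for ZNF598. The cause was not tested for any of these.

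No spiked-in RNA fixes the scale, so the sign of slopes near 0 rests on the scaling chosen. The rate of fall changed with time, so a slope and its half-life are averages over 4 h. The first-hour counts rest on 3 libraries against 3 and moved with the pairing and with single libraries.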
